A study of Mus musculus with 21 samples.

Results

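Smooth muscle cells cultured from the mouse aorta were stimulated through the lymphotoxin beta receptor (LTBR) with an agonist antibody, and their RNA was measured 2 h and 6 h later on Affymetrix arrays. The early response rests on 4 arrays of the 21 in the series. They are 1 array with the antibody and 1 with PBS, the control, at each of the 2 times, all numbered 0 in the labels. Of 18193 genes with a single gene symbol on the array, 11228 were above the array median with PBS, with the antibody or with both, at 2 h and again at 6 h. For each of these genes the difference between the antibody and the PBS array of the same time was taken on the log2 scale, and the genes that moved the same way at 2 h and at 6 h are described. A 2-fold difference the same way at both times was seen for 7 genes, 6 higher and 1 lower, and a 1.5-fold difference for 46, 38 higher and 8 lower. With 1 array a group there is no replicate check at these times, so the early values carry no error and no test.

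All cells came from the aortas of male C57BL/6J mice aged 10 to 12 weeks and were kept in DMEM/F12 with 10% FCS. The antibody was used at 10 µg/ml, and every agent was added in PBS. The labels do not say how many animals or cultures the cells came from, or whether arrays of one number share a culture. For comparison the series holds TNF (1 ng/ml) on 1 array each at 2 h and 6 h, also numbered 0. At 24 h it holds 4 arrays each, numbered 0 to 3, for PBS, the antibody and TNF, and 3 arrays that received TNF with the antibody.

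LTBR belongs to the family of TNF receptors. It is carried by stromal cells rather than by lymphocytes, and it is best known for the building of lymph nodes. When engaged it sets off the classical NF-kB pathway, in which the inhibitor IkB is destroyed and Rela dimers enter the nucleus. More slowly it sets off the alternative pathway, in which the kinase encoded by Map3k14 accumulates, the precursor encoded by Nfkb2 is cut and dimers with Relb form. Both pathways raise the genes of their own subunits and inhibitors, which is why those genes are often read as a sign of NF-kB activity.

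The 4 early arrays had been scaled to a common trimmed mean signal of 500.0, and their medians lay between 106.8 and 114. Of 9 smooth muscle markers 8 were above the median on all 4 arrays, among them Acta2 at 17058 to 18329, while Myh11, the smooth muscle myosin heavy chain gene, lay at 185.6 to 202 against 529 to 3338 on the 24 h arrays numbered 1 to 3. Of 12 endothelial markers 10 were above the median on all 4 early arrays. Pecam1 had a signal of 3808 to 4734 there and of 4438 to 5653 on the 24 h arrays numbered 0, against 40.3 to 375.5 on the 24 h arrays numbered 1 to 3. The summed endothelial signal was 19089 with PBS and 18000 with the antibody at 2 h, and 19640 and 19210 at 6 h. Of 9 macrophage markers 3 were above the median, and the leukocyte gene Ptprc lay at 14.8 to 45. The part of endothelial or other cells in the results below was not tested, and in such bulk RNA fewer cells of a type and less RNA per cell cannot be told apart.

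With the antibody, the chemokine gene Ccl2 and the NF-kB pathway genes Nfkbie, Birc3, Bcl3 and Relb were higher than with PBS at both times, and Ccl2, Birc3 and Relb more so at 6 h, while every smooth muscle contractile gene that passed differed by less than 1.5-fold. At 2 h, 30 genes were at least 2-fold higher with the antibody (0.267%) and 20 at least 2-fold lower (0.178%). At 6 h, 60 were higher (0.534%) and 21 lower (0.187%). Counted in the same way, the PBS array at 6 h differed by 2-fold from the PBS array at 2 h for 46 genes in either direction (0.41%), close to the 50 genes in either direction with the antibody at 2 h (0.445%) and below the 81 at 6 h (0.721%). Of the higher genes, 24 of the 30 at 2 h and 45 of the 60 at 6 h had PBS at or below the array median. They so passed the filter through the antibody array. Over all 11228 genes this held for 231 at 2 h and 300 at 6 h. With both arrays required to be above their median, 6 genes were higher and 2 lower at 2 h, and 15 and 6 at 6 h. The same direction at both times was kept at 2-fold by 6 higher genes (0.0534%) and 1 lower gene (0.00891%), and 3 genes went opposite ways (0.0267%). Of the 6, 4 had PBS at or below the array median at both times. At 1.5-fold, 38 genes were higher at both times (0.338%), 8 were lower at both (0.0713%) and 26 went opposite ways (0.232%). Taking 2 h alone, 182 genes were 1.5-fold higher (1.62%) and 117 lower (1.04%), 299 in either direction (2.66%). At 6 h alone these were 258 (2.3%), 135 (1.2%) and 393 (3.5%), against 309 for PBS at 6 h against PBS at 2 h (2.75%). By any amount, 25.2% of genes were higher at both times. Over all 11228 genes the differences at 2 h and at 6 h, which share no array, had a Pearson r of 0.13 and a Spearman rho of 0.10, given as a description across genes.

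Bright genes were also counted alone. A count limited to the 8113 genes with a signal above 3 times the array median on at least 1 of the 2 arrays of each time, at 2 h and also at 6 h, left 3 genes 2-fold higher (0.037%) and 1 lower (0.0123%) at 2 h, and 10 higher (0.123%) and 2 lower (0.0247%) at 6 h. PBS at 6 h against PBS at 2 h had 3 in either direction (0.037%). The 10 higher genes at 6 h were Ccl2, Birc3, Nfkbie, Nfkb2, Tnfaip3, Relb, Junb, Sema3f, Zap70 and Ddx28. The first 6 are the chemokine gene and the NF-kB pathway genes described next, and Junb encodes an AP-1 subunit. This limit on signal was chosen after the values were seen.

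**Figure D1:**
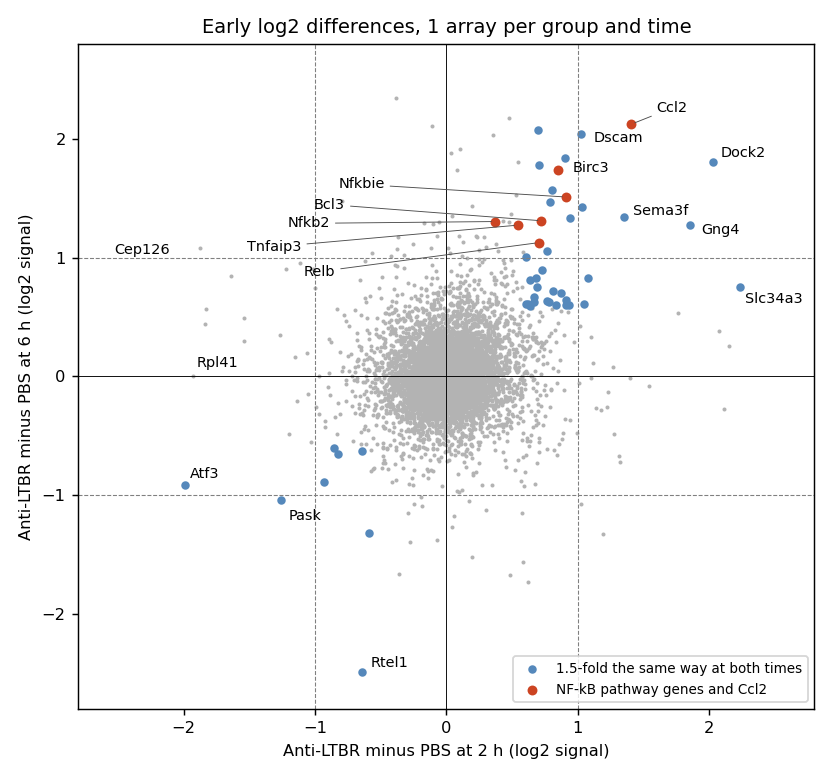
Log2 difference between the anti-LTBR and the PBS array at 2 h (x axis) and at 6 h (y axis) for 11228 genes (grey), with the genes 1.5-fold the same way at both times in blue and 6 NF-kB pathway genes and Ccl2 in red; dashed lines mark 2-fold. Most genes lie near 0 at both times, and the red genes lie higher at 6 h than at 2 h, with Ccl2 at 1.41 and 2.12.

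Ccl2 encodes a chemokine that draws monocytes. Its signal was 568 with PBS and 1523 with the antibody at 2 h, and 689.5 and 3041 at 6 h. Both antibody arrays lay above both PBS arrays of these times and above the PBS array numbered 0 at 24 h, which had 375. The log2 difference was 1.41 at 2 h and 2.12 at 6 h, a fold of 2.65 and 4.36. The TNF arrays gave 9566 and 10373, so that TNF exceeded the antibody at both times. They are compared with the same PBS arrays, and the 2 differences are therefore not independent.

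Among the subunits of NF-kB, Relb and Nfkb2, the pair of the alternative pathway, were higher at both times and more so at 6 h. Relb had 203 with PBS and 336 with the antibody at 2 h, and 243 and 542 at 6 h (log2 0.70 and 1.13). Nfkb2 had 277 and 361 at 2 h, and 280.4 and 708 at 6 h (0.37 and 1.30). A second, dimmer Nfkb2 probe set gave the larger difference at 2 h, 0.85 against 0.30 at 6 h, so the order of the times for Nfkb2 depends on the probe set. Rela, the subunit of the classical pathway, went from 2461 to 2716 at 2 h and from 2466 to 2997 at 6 h (0.14 and 0.28). The 3 subunits that passed the signal filter, of 5 in the list, had a median of 0.37 at 2 h and 1.13 at 6 h, against -0.01 and -0.00 over all genes. Of the 3, 2 were 2-fold higher at 6 h, where 0.534% of all genes were. Rel did not pass the filter, and Nfkb1 is not analysed here.

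Of the inhibitors of NF-kB, Nfkbie and Bcl3 were 1.5-fold higher at both times. Nfkbie encodes IkB epsilon, which holds NF-kB dimers in the cytoplasm. Its signal was 208 with PBS and 400.0 with the antibody at 2 h, and 188 and 554 at 6 h, with both antibody arrays above all 3 PBS arrays numbered 0. The log2 difference was 0.91 and 1.51, and a second probe set gave 0.95 and 0.89, so the order of the times for Nfkbie depends on the probe set. Bcl3, which encodes a nuclear IkB protein that can also aid transcription, had 98.0 and 168 at 2 h and 55.3 and 152 at 6 h (0.72 and 1.31). Here the PBS array at 6 h was low, and the antibody arrays themselves differed little.

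Tnfaip3 encodes A20, an enzyme that ends NF-kB signalling by editing ubiquitin chains. It had 625 with PBS and 916 with the antibody at 2 h, and 720.3 and 1756 at 6 h (0.54 and 1.27), while a second probe set gave 0.27 and 1.73. Only its antibody array at 6 h was clearly above the 24 h PBS array numbered 0, which had 904. Nfkbia, the gene of IkB alpha and the brightest of the group, had 8289 and 11294 at 2 h, and 9122 and 13682 at 6 h (0.45 and 0.58). The antibody arrays of Nfkbia lay above the PBS arrays at both times, by less than 1.5-fold at each.

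Across the list of IkB proteins and feedback inhibitors, 12 of 14 members passed the filter, and 8 of these were higher at both times and 1 lower at both. All genes together had 25.2% higher and 27.7% lower at both times. Past 2-fold were 0 members at 2 h and 3 at 6 h, namely Nfkbie, Bcl3 and Tnfaip3, where 0.534% of all genes were 2-fold higher at 6 h. The median was 0.21 at 2 h and 0.45 at 6 h, against -0.01 and -0.00 over all genes. The lowest member at 2 h was Nfkbib, the gene of IkB beta, at -0.53, which stood at 0.49 at 6 h. The lowest at 6 h was Tnip2, an A20-binding protein gene, at -0.47 and -0.13. The deubiquitinase gene Cyld was at 0.01 and 0.03.

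**Figure D2:**
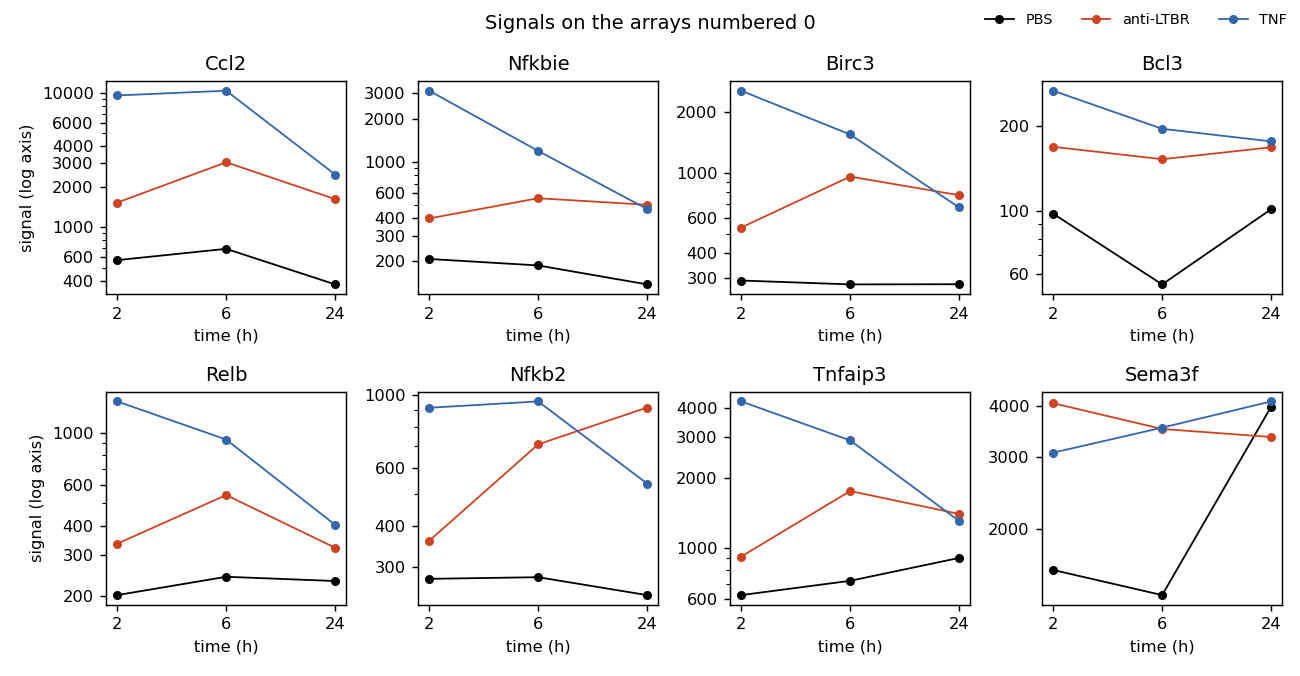
Signal (log axis, a scale of its own in each panel) of 8 genes on the arrays numbered 0 at 2 h, 6 h and 24 h, 1 array a point, with PBS in black, anti-LTBR in red and TNF in blue and the times spaced evenly. For Ccl2, Nfkbie, Birc3, Relb and Nfkb2 the red points lie above every black point, whereas the black point of Sema3f at 24 h (3977) is level with the red points.

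Promoter letters are shown for 4 pathway genes whose promoter in the RefSeq table (assembly GRCm38.p6) holds the NF-kB consensus decamer. The sequence can so be read beside the values of Nfkbie, Nfkb2, Nfkbia and Tnfaip3 above. They were taken from the genes 1.5-fold the same way at both times, those called at 24 h, and Relb, Bcl3, Tnfaip3 and Nfkb2. The promoters of pathway genes outside these sets are not described, and the choice followed the values. Each run is the 250 bases before a transcription start, written 5′ to 3′ on the strand of the gene in lower case, with every match to the decamer on either strand in capitals. Matches that overlap appear as 1 run of capitals. They lie at chr17:45555450-45555699 (plus strand) for Nfkbie, chr19:46304487-46304736 (plus strand, the first of 3 starts) for Nfkb2, chr12:55492648-55492897 (minus strand) for Nfkbia and chr10:19015411-19015660 (minus strand, the first of 2 starts) for Tnfaip3.
Nfkbie: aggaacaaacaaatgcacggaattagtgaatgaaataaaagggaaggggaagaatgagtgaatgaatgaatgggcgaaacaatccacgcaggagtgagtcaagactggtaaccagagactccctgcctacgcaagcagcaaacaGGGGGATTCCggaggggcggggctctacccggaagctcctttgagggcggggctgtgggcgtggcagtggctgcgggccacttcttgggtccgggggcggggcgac
Nfkb2: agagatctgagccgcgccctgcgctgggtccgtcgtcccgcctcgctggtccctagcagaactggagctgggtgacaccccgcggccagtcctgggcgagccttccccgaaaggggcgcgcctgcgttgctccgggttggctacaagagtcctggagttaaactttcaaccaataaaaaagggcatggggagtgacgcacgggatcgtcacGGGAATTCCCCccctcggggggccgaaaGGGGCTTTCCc
Nfkbia: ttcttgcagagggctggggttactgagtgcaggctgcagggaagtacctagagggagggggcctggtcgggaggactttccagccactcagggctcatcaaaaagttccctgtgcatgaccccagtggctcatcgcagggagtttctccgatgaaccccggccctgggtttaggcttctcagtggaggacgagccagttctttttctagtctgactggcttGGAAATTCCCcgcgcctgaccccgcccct
Tnfaip3: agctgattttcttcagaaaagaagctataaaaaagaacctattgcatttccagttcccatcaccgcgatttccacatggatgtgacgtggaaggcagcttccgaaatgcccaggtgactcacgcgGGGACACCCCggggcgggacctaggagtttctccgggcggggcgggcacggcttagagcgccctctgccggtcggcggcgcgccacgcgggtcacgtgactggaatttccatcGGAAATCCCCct
A decamer was found before at least 1 start of 2225 of the 27025 genes in that table (8.23%), and of 10.8% of the genes that passed the signal filter and are listed. Of the 38 genes 1.5-fold higher at both times, 29 are listed and 4 held it (13.8%): Nfkbie, Gng4, Nos1 and Rasd2. Of the 8 lower genes 6 are listed and 0 held it. Of the 16 genes called higher at 24 h, in the test described below, 13 are listed and 6 held it (46.2%): Nfkb2, Nfkbia, Casp4, Cxcl10, H2-K1 and Irf1. The windows of Birc3 and Bcl3 held no match to these letters, and Ccl2 and Relb are not in the table. A match is a run of letters and not a measured binding site.

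The receptor and its signalling proteins varied less. Ltbr itself had 1544 with PBS and 1379 with the antibody at 2 h, and 1494 and 1443 at 6 h (-0.16 and -0.05). Of 16 pathway components 12 passed the filter, with a median of 0.03 at 2 h and 0.00 at 6 h. The member past 2-fold was Birc3, which encodes an inhibitor of apoptosis that takes part in the degradation of the Map3k14 kinase. Birc3 had 293 and 536 at 2 h, and 280.4 and 959 at 6 h (0.85 and 1.74), and both antibody arrays were above all 3 PBS arrays numbered 0, the third of which had 281.0. A second, dim Birc3 probe set that did not pass gave -0.40 and -0.68.

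Birc2, the close relative of Birc3, had 894 and 1216 at 2 h, and 1112 and 1991 at 6 h (0.44 and 0.83). Map3k14 had 217 and 267, then 197 and 285 (0.29 and 0.51), although the 24 h PBS array numbered 0 reached 302. The adaptor genes Traf2 (0.07 and 0.05), Traf5 (0.02 and -0.29), Traf6 (-0.08 and -0.45) and Tradd (0.06 and -0.23) stayed within 1.5-fold. The same holds for the TNF receptor genes Tnfrsf1a (-0.07 and -0.09) and Tnfrsf1b (-0.01 and 0.40), and for the IkB kinase genes Ikbkb (0.04 and -0.01) and Ikbkg (-0.20 and 0.01). Other probe sets of these genes that passed also stayed within 1.5-fold. Some that did not pass went beyond it, for Map3k14 (1.57 and 1.52), Tnfrsf1b (0.37 and 0.96) and Ikbkb (1.74 and 1.96). Others were for Traf6 (0.59 and 1.66, and 0.20 and 0.60) and Traf5 (0.37 and -1.28). Traf1 did not pass the filter, and Traf3, Ripk1 and Chuk are not analysed here.

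Of 18 inflammatory chemokines 7 passed the filter, and Ccl2 was the member past 2-fold. The 7 had a median of 0.09 at 2 h and 0.41 at 6 h. Cxcl1, a neutrophil chemokine, was at 0.38 and 0.63, and Cxcl16 at 0.08 and 0.51. Of the 11 that were too dim to pass, 4 were higher at both times, 3 lower at both and 4 went opposite ways. Ccl7, a monocyte chemokine, had 53.7 with PBS and 99.5 with the antibody at 2 h, and 65.7 and 316 at 6 h. The T cell chemokine Ccl5 had 34 with PBS and 7.4 with the antibody at 2 h, and 32.2 and 82.3 at 6 h. Cxcl10, another, had 103 and 91.4 at 2 h, and 98.6 and 136 at 6 h. The 3 lower at both times were Ccl3, Cxcl9 and Cxcl11, with Cxcl9 at 63.6 and 21.3, then 53.9 and 28.2. With TNF at 6 h Ccl7 reached 2224, Ccl5 698 and Cxcl10 1221.

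The lymphoid tissue organizer genes, products by which stromal cells gather and hold lymphocytes, had 0 members past 2-fold at either time among the 6 of 13 that passed. Their median was 0.32 at 2 h and 0.03 at 6 h, and the latter became -0.00 when the arrays were scaled to equal medians. The adhesion genes Icam1 and Vcam1 were the highest at 6 h, with log2 differences of 0.42 and 0.78 for Icam1 and 0.38 and 0.67 for Vcam1. Icam1 had a signal of 3521 with PBS and 4710 with the antibody at 2 h, and 3749 and 6463 at 6 h. Sele, the endothelial selectin gene, was at 0.42 and 0.59, on arrays where the endothelial marker Pecam1 was bright. Cxcl13, the B cell chemokine, was at 0.31 and -0.14, and Cxcl12 at -0.09 and -0.01.

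**Figure D3:**
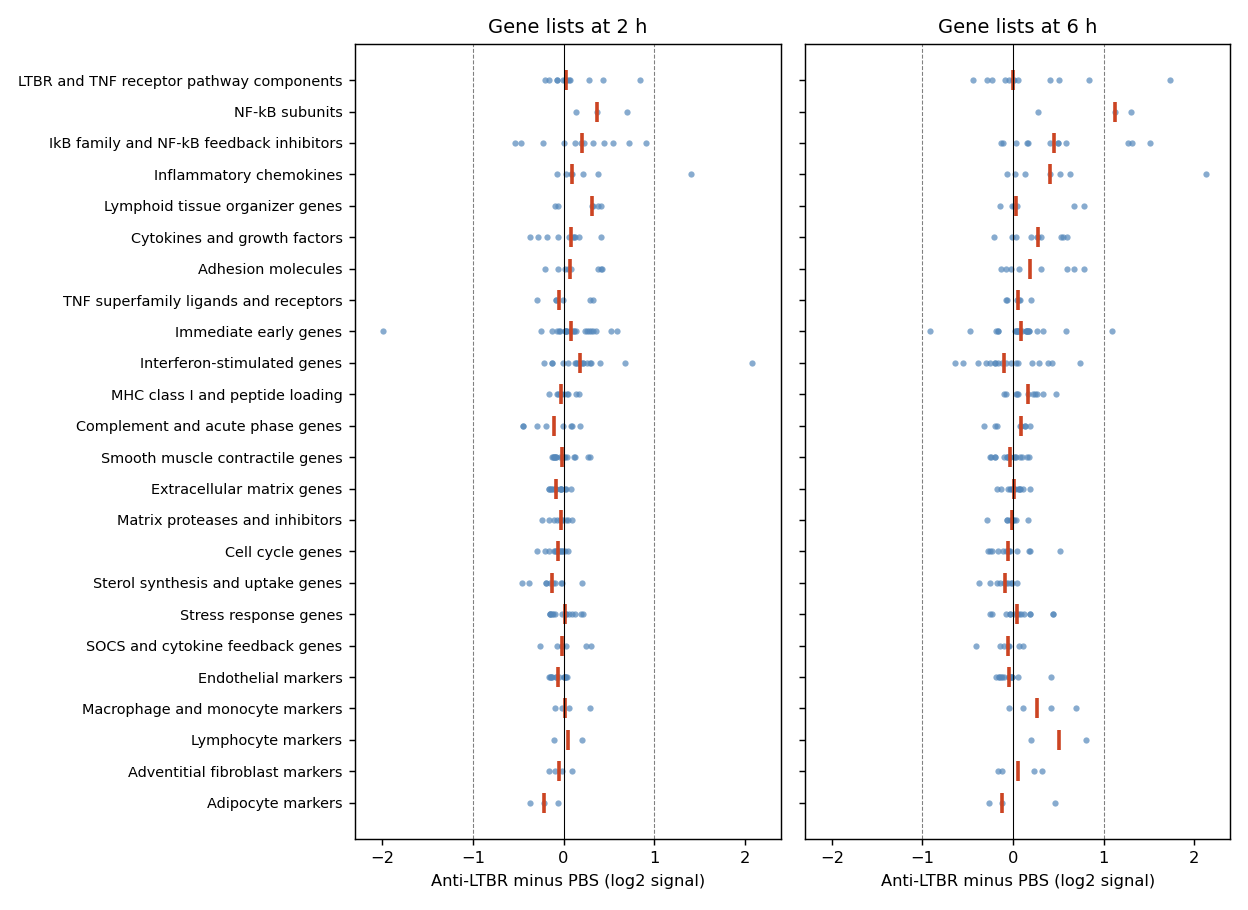
Log2 difference between anti-LTBR and PBS at 2 h (left) and 6 h (right) for the members of 24 gene lists that passed the signal filter, 1 point a gene, with the list median as a red bar and dashed lines at 2-fold. The NF-kB subunits stand at a median of 0.37 and 1.13, and most other medians are close to 0 at both times.

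Of 24 immediate early genes that passed, the transcription factor genes that follow many stimuli within the hour, 1 was past 2-fold at each time. Atf3, a stress-induced factor, was lower at both times, with 386 for PBS and 89.5 for the antibody at 2 h, and 315 and 163 at 6 h (-1.99 and -0.91). Both antibody arrays lay below all 3 PBS arrays numbered 0, the third of which had 265. With TNF the Atf3 signal was 444 at 2 h and 141 at 6 h. Junb had 534 and 661 at 2 h, and 430.3 and 927 at 6 h (0.30 and 1.09). The remaining members, with Fos (0.04 and -0.17), Egr1 (-0.04 and 0.14) and Jun (-0.05 and 0.15) among them, were within 2-fold, and the median of the list was 0.08 at 2 h and 0.09 at 6 h.

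Of 18 interferon-stimulated genes that passed, 1 was past 2-fold, Oas1a at 2 h. It had 51.9 with PBS and 252 with the antibody at 2 h, and 129 and 172 at 6 h (2.08 and 0.39), with 200.1 on the 24 h PBS array numbered 0. The median of the list was 0.19 at 2 h and -0.10 at 6 h. Irf1, an interferon regulatory factor gene that NF-kB also drives, was at 0.21 and 0.74. The 11 genes of MHC class I and peptide loading had medians of -0.03 and 0.16 and none past 1.5-fold at either time. Scaling by quantiles turned the former to 0.00.

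The programme of the smooth muscle cell lay close to PBS. Of 17 contractile genes that passed, 0 were past 1.5-fold at either time, with medians of -0.02 and -0.04 and a lowest member, Cnn1, at -0.13 and -0.26. The 16 extracellular matrix genes (-0.08 and 0.01), the 10 matrix proteases and inhibitors (-0.03 and -0.01), the 14 cell cycle genes (-0.06 and -0.06) and the 15 stress response genes (0.01 and 0.05) also had 0 members past 1.5-fold at either time. The matrix gene median at 6 h and the stress gene median at 2 h change sign when the arrays are scaled to equal medians, the former by quantiles too. Of 10 genes of sterol synthesis and uptake 8 were lower at both times, by a median of -0.13 at 2 h and -0.09 at 6 h. All genes together had 27.7% lower at both times.

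Besides Ccl2, the genes past 2-fold at both times were Dock2, Sema3f, Gng4, Il17a and Dscam on the higher side and Pask on the lower side. Dock2, an activator of Rac in blood cells, had 39.5 with PBS and 193 with the antibody at 2 h, and 38.8 and 161 at 6 h (2.03 and 1.80). Sema3f, which encodes a secreted guidance protein, had 1585 and 4058 at 2 h, and 1376 and 3510 at 6 h (1.35 at each). Gng4, a G protein subunit gene, had 30.8 and 138 at 2 h, and 57.6 and 154 at 6 h (1.86 and 1.28). In each of these genes the antibody arrays were level with the 24 h PBS array numbered 0, which had 189, 3977 and 174 in turn.

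Il17a, a T cell cytokine gene, had 51.0 and 115 at 2 h, and 46.6 and 143 at 6 h (1.03 and 1.43), with 122 on the 24 h PBS array. Dscam, a neuronal adhesion gene, had 53.2 and 118 at 2 h, and 23.3 and 127 at 6 h (1.02 and 2.04), with 191 on the 24 h PBS array. Pask, a kinase gene, had 124 and 45.8 at 2 h, and 114 and 50.1 at 6 h (-1.26 and -1.04), with 20.3 on the 24 h PBS array. None of these 3 was therefore beyond the 24 h PBS array numbered 0 on both antibody arrays. With TNF, against the same PBS arrays, Dock2 was at 1.64 and 1.73, Sema3f at 0.95 and 1.36 and Gng4 at 1.64 and 1.77. Il17a was at 0.67 and 1.36 with TNF, Dscam at 2.24 and 2.23 and Pask at -1.09 and -1.04. Since both agents share the PBS arrays, these differences are not independent of those with the antibody. For Sema3f, 2 other probe sets, with PBS signals of 1123 to 2543, gave -0.26 and -0.03 at 2 h, and -0.17 and -0.26 at 6 h.

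The members nearest to the 2-fold limit at both times were Dscam and Il17a inside it, and Sh3bgr (0.94 and 1.33) and Nfkbie (0.91 and 1.51) outside. On the lower side Pask was inside, and Atf3 and Tmem266 (-0.93 and -0.89) were outside. The other named genes on the higher side were Birc3, Vax2 (0.90 and 1.84), Rasd2 (1.08 and 0.83), Prr15 (0.80 and 1.57), Actl7a (0.79 and 1.47), 4933439C10Rik (0.76 and 1.06) and Slc34a3 (2.23 and 0.76). Apart from Birc3 and 4933439C10Rik these genes were dim, and their highest signal on the 4 early arrays was 158, for Vax2.

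Of the 38 genes 1.5-fold higher at both times, 24 had a PBS signal at or below the array median at both times and so passed the filter through the antibody arrays. The highest of the 4 signals was under 200 for 26 of the 38, with a median of 159. Set against the 24 h PBS array numbered 0, both antibody arrays were above it for 16 of the 38, where 31.0% of all genes that passed were so placed. They exceeded it by 1.5-fold for 5 (0.748% of all genes did so), which were Ccl2, Nfkbie, Birc3, Sh3bgr and Myorg. The same antibody arrays served to choose the 38, so neither share over all genes is an independent comparison. The 24 h PBS array numbered 0 was above both early PBS arrays for 31 of the 38, against 39.5% of all genes. The 38 were chosen as low on the early PBS arrays against the antibody, which favours this placing over that of unselected genes. Any other cause was not tested.

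**Figure D4:**
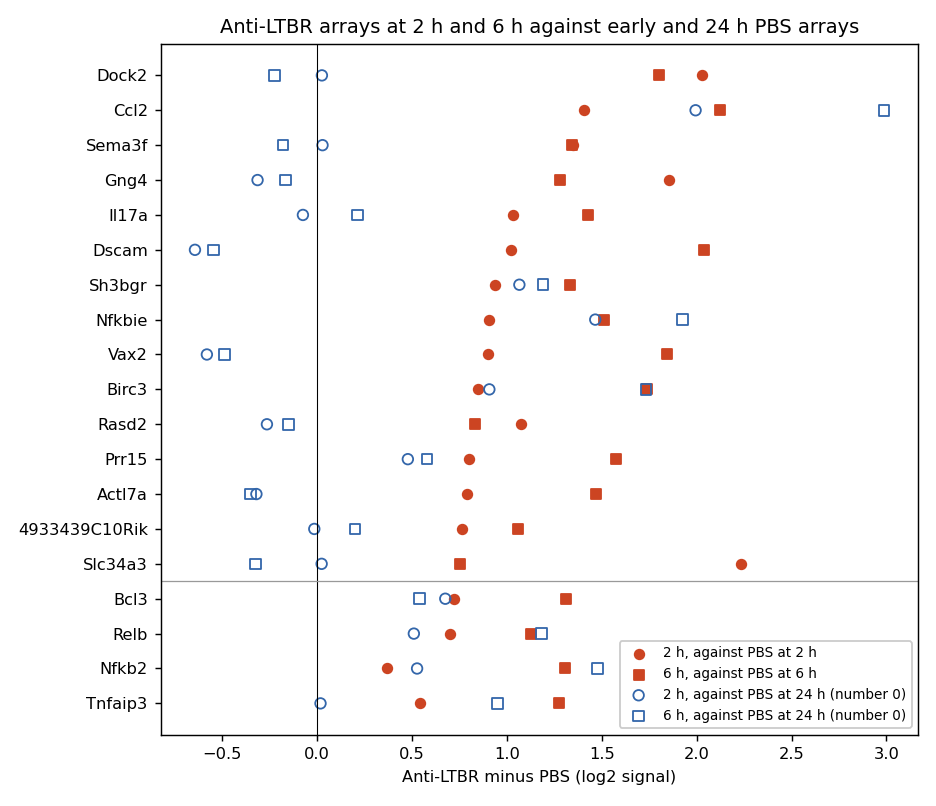
Log2 difference of the anti-LTBR arrays at 2 h (circles) and 6 h (squares) from the PBS array of the same time (filled red) and from the PBS array numbered 0 at 24 h (open blue), for the 15 genes highest at both times and, below the grey line, 4 further NF-kB genes. Ccl2, Nfkbie, Birc3, Sh3bgr, Prr15, Bcl3, Relb and Nfkb2 are higher by both measures, as is Tnfaip3, by only 0.02 at 2 h against the 24 h array. Dock2, Gng4, Vax2 and Dscam lie at about 0 or below against the 24 h array.

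Of the 8 genes 1.5-fold lower at both times, 5 had both antibody arrays below the 24 h PBS array numbered 0, as had 39.4% of all genes. Of these 3 were below it by 1.5-fold (0.659% of all genes), namely Atf3, Neto1 and Tmem94. Here too the antibody arrays had served to choose the genes, so the shares are not independent comparisons. Neto1, a glutamate receptor partner gene, had 121 with PBS and 74.0 with the antibody at 2 h, and 172 and 108 at 6 h (-0.64 and -0.63). Tmem94 had 332 and 179, then 312 and 202 (-0.86 and -0.60). Atg7, which encodes an enzyme of autophagy, had 693 and 387, then 675 and 424 (-0.82 and -0.66), while another probe set that passed gave -0.28 and 0.17.

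Rtel1, a DNA helicase gene, showed the lowest value of all at 6 h, -2.49, after -0.64 at 2 h. Its signal was 807 and 513 at 2 h, and 814 and 136 at 6 h. The 24 h PBS array had 51.5, and 2 other Rtel1 probe sets that passed gave 0.18 and 0.15 at 2 h, and 0.15 and -0.06 at 6 h. Mesp2, a factor of somite formation, was at -0.59 and -1.32.

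Some genes stood out at 1 time only. At 2 h, among genes with a log2 difference within 0.322 of 0 at 6 h, the highest were Gh (2.15), Tmem191c (2.11), Il15ra (1.54), Notum (1.39) and Pigz (1.27). In each of these genes the PBS array at 2 h was the lowest of the 4 early arrays. For Gh it had 20.7 against 95.2 to 127.1 on the others. With TNF at 2 h, against the same PBS array, the differences were 2.04, 1.85, 2.35, 1.46 and 0.81 in turn. Il15ra, the gene of an interleukin receptor chain, had 101 with PBS and 313 with the antibody, but a second probe set of like signal gave -0.02. The lowest were Rpl41 (-1.93), Susd2 (-1.54) and Mmp17 (-1.15). Rpl41, a ribosomal protein gene, had 4551 on the antibody array at 2 h and 17359, 17380 and 17456 on the other 3 early arrays, while another probe set with a signal of 9310 to 10228 gave -0.14.

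At 6 h, under the same limit at 2 h, the highest were Prima1 (2.11), Fank1 (1.92), Hs3st2 (1.88), Fpr2 (1.74) and Mm2pr (1.44). In all 5 the PBS array at 6 h was the lowest of the 4 early arrays, for example 62.6 for Fank1 against 208, 225 and 265 on the others. The lowest were 1600014C23Rik (-1.52), Klhdc8b (-1.39) and Zfp1 (-1.38). Zfp1, a zinc finger gene, had 89.0 with the antibody at 6 h against 244 to 258 on the other 3 early arrays, and the 24 h PBS array had 38.3.

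The 24 h arrays, which took no part in choosing the genes, allowed a test with limma in 1 fit of 15 arrays. Of 12429 genes tested, 16 rose with the antibody (0.129%) and 0 fell, at an adjusted p under 0.05, and 537 had an unadjusted p under 0.05. A single pair of the same number at 24 h had a 2-fold difference in either direction for 99 (0.882%, number 0), 133 (1.18%, numbers 1 and 2 each) or 120 genes (1.07%, number 3). The replicate numbers pair the 24 h arrays, and with the number as a block 319 genes rose (2.57%) and 277 fell (2.23%). All 16 genes called without the block were also called higher with it. Of the 38 genes higher at both early times 36 were tested, and 1 was called without the block, Birc3. With the block 6 were called: Ccl2, Nfkbie, Birc3, Bcl3, Relb and Plvap. Of the 8 lower genes 0 were called as lower, either way.

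Birc3 had a signal of 383 ± 68.8 with PBS and 888 ± 97.2 with the antibody at 24 h (SD, n = 4 each). It rose by 1.20 ± 0.20 (log2, SE; limma adjusted p = 0.0402), higher in 4 of 4 pairs. Leaving out 1 of the 15 arrays ended this call in 10 cases, which were each of the 8 PBS and antibody arrays, TNF number 1 and both agonists number 2, and over all alternatives the adjusted p ran from 0.00027 to 0.147. Ccl2 had 195 ± 142 with PBS and 1013 ± 608 with the antibody, a log2 difference of 2.37 ± 0.54 that was not called without the block (limma adjusted p = 0.196) and was called with it (adjusted p = 0.0002). Its 4 pairs were close to each other, at 2.08, 2.54, 2.50 and 2.37 for numbers 0 to 3.

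Nfkbie, at 88.1 ± 40.7 and 420 ± 156 (n = 4 each), differed by 2.15 ± 0.41 (limma adjusted p = 0.0663, with the block 8.9e-06). Relb differed by 0.84 ± 0.18 (limma adjusted p = 0.150, with the block 0.0043), and Bcl3 by 1.82 ± 0.41 (adjusted p = 0.176, with the block 0.0055). Plvap, an endothelial gene, differed by 1.58 ± 0.68 (limma adjusted p = 0.999, with the block 0.0061), and its early differences were 0.61 at each time. All 6 genes were higher in 4 of 4 pairs. Only 1 other of the 38, Rasd2, was higher in all 4 pairs, so that 7 of 38 (18.4%) were, against 12.9% of all genes that passed. Lower in all 4 pairs were 6 of the 38 (15.8%), against 14.5% of all genes.

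**Figure D5:**
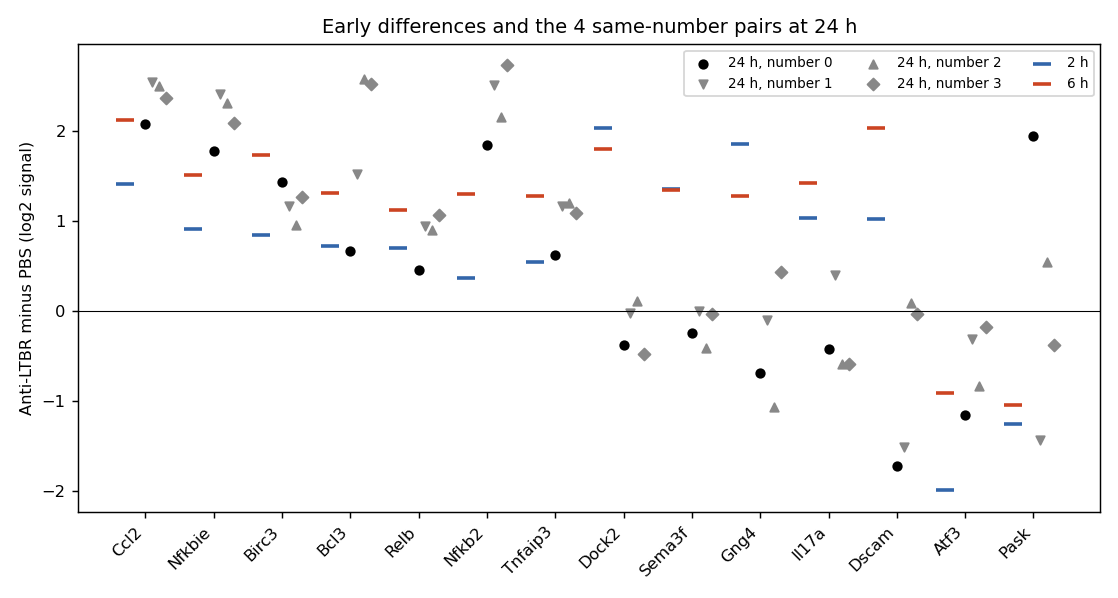
Log2 difference between anti-LTBR and PBS for 14 genes at 2 h (blue bars), at 6 h (red bars) and in the 4 pairs of the same number at 24 h (symbols; number 0 in black). The 7 genes on the left are above 0 in all 4 pairs, while Dock2, Sema3f, Gng4, Il17a and Dscam, all above 1 at both early times, scatter around or below 0 at 24 h.

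The other genes past 2-fold at both early times were not called at 24 h with or without the block. Their log2 differences there were -0.19 ± 0.21 for Dock2, -0.17 ± 0.13 for Sema3f, -0.35 ± 0.22 for Gng4, -0.30 ± 0.22 for Il17a and -0.79 ± 0.43 for Dscam (SE), each higher in 1 of 4 pairs. Pask was at 0.17 ± 0.73 and went opposite ways between pairs, from -1.44 to 1.95. Atf3, lower at both early times, was lower in 4 of 4 pairs at 24 h, by -0.62 ± 0.32, and was not called (limma adjusted p = 0.999, with the block 0.0753).

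Read the other way, the 16 genes that rose at 24 h were traced back to the early arrays. Of these 13 passed the early filter; 10 were higher at 2 h, where 47.8% of all genes were, and 13 at 6 h, where 49.6% were. The median was 0.21 at 2 h, 0.58 at 6 h and 0.73 in the 24 h pair numbered 0, and 12 of the 13 had the larger difference at 6 h. Past 1.5-fold were 1 at 2 h and 6 at 6 h. Nfkb2 had 0.37 and 1.30 before 2.31 ± 0.24 at 24 h (adjusted p = 0.0018), a call that no left-out array ended. Casp4, an inflammatory caspase gene, had 0.02 and 0.76 before 1.37 ± 0.15 (adjusted p = 0.0018). Zfp36l1, which encodes an mRNA decay factor, had 0.26 and 0.73 before 0.79 ± 0.12 (adjusted p = 0.0146), and Irf1 0.21 and 0.74 before 0.55 ± 0.08 (adjusted p = 0.0128). The Zfp36l1 call was lost without PBS number 1 or antibody number 1, 2 or 3 (adjusted p up to 0.080), and the Irf1 call without PBS number 2 or 3 or antibody number 1 or 3 (up to 0.0728). Scaling to equal medians ended both calls (adjusted p = 0.0571 and 0.132).

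Nfkbia (0.97 ± 0.13, limma adjusted p = 0.0088, but 0.097 with equal array medians) and Birc2 (1.03 ± 0.18, adjusted p = 0.0432) also rose at 24 h, the latter in a call that 11 of 15 left-out arrays ended, all 4 PBS arrays among them (adjusted p up to 0.207). The MHC class I gene H2-K1, which rose by 0.94 at 24 h in a call that no left-out array ended, was at -0.03 at 2 h and 0.22 at 6 h. Rrad, Ccl5 and Cxcl10, which rose at 24 h too, were too dim on the early arrays to pass the filter. Their calls were lost without 13, 12 and 13 of the 15 arrays in turn (adjusted p up to 0.207), each of the PBS arrays numbered 1 and 3 and the antibody arrays numbered 1 to 3 among them. Arrays were left out in the fit without the block only, and with the block all 16 calls were kept. Among the 299 genes called higher at 24 h with the block that passed early, 56.9% were higher at 2 h and 81.3% at 6 h. Among the 269 called lower, 54.6% were lower at 2 h and 68.0% at 6 h, where 52.1% and 50.3% of all genes were lower.

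Set beside TNF on the arrays of the same time, the antibody gave the smaller signal for Relb, Nfkb2, Nfkbie, Bcl3, Tnfaip3, Nfkbia, Birc2 and Birc3 at both times. At 2 h the antibody and TNF gave 400.0 and 3129 for Nfkbie, 536 and 2552 for Birc3, 336 and 1360 for Relb, and 916 and 4275 for Tnfaip3. At 6 h they gave 554 and 1187, 959 and 1550.0, 542 and 935, and 1756 and 2903. For these 4 genes the TNF signal was lower at 6 h than at 2 h and the antibody signal higher. For Nfkb2 the antibody array reached 708 at 6 h against 954 with TNF, and on the arrays numbered 0 at 24 h it had 915 against 538. Over all genes TNF had 116 genes 2-fold higher at 2 h (1.03%) and 143 at 6 h (1.27%), against the same PBS arrays, and 127 were 1.5-fold higher at both times (1.13%). For 2-fold lower genes TNF had 44 at 2 h (0.392%) and 48 at 6 h (0.428%). All 6 genes 2-fold higher with the antibody at both times were also 1.5-fold higher with TNF at both. So were 19 of the 38 genes 1.5-fold higher with the antibody at both times. The PBS arrays that served to choose these genes also enter the TNF differences, so the counts are not independent.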

How the data were processed

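RNA of cultured smooth muscle cells was measured on 21 Affymetrix arrays of 45101 probe sets. Intensity values, on a linear scale, were used as deposited, and the submitters' processing notes name GCOS 1.4. How probes were summarized, background removed and detection called is not given in the sources used here. With the top and bottom 2% of probe sets removed, each array averages 500.0, and no further scaling was applied. The number of arrays limits the precision.

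Gene symbols come from the platform annotation: 34945 probe sets carry 1 symbol, 932 several and 9160 none that is listed, and 64 are controls. Each gene was read from the probe set with the highest mean log2 value over the 21 arrays. To each signal 10.2 was added, the 10th percentile at 24 h, before log2 was taken, and a log2 difference or fold on this scale understates the change of dim genes. A gene entered the early comparison if at least 1 of the 2 arrays of a time was above its own median, at 2 h (11650 genes), at 6 h (11571) and so at both (11228). No test was run at 2 h and 6 h. At 24 h limma 3.58.1 in R 4.3.3 was fitted to 15 arrays with a variance trend, with Benjamini-Hochberg adjustment over 12429 genes. A trial on simulated data drew every array independently, so it does not cover the pairing of the real arrays by number. The labels do not name separate cultures or animals, so the limma p-values reflect the spread between samples that may be technical replicates.

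The numbers 0 to 3 of the labels were checked for pairing on the 24 h arrays with the group means removed. Arrays of 1 number correlated at 0.46 to 0.81 (21 pairs), those of different numbers at -0.58 to 0.21 (63 pairs), and 15 of 15 arrays correlated best with one of their own number. The numbers thus pair the arrays, and values with the replicate block are given where the block changes a call.

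The genes named are the 15 highest and 8 lowest by the smaller of the 2 early differences, the 5 highest and 3 lowest at each time among genes with a log2 difference within 0.322 of 0 at the other, list members past 2-fold with the highest and lowest member of each list, the LTBR pathway components, and the genes beside the 2-fold limit. Zap70, Ddx28 and the genes called at 24 h were named after their values were seen, as were further list members given as examples. The members and the 24 lists were chosen with earlier results of these data known. Promoter letters are from RefSeq (GRCm38.p6), which lists 27025 genes. They were searched on both strands for the NF-kB consensus decamer in the 250 bases before each start. Alternatives were other pseudocounts, filters, scalings, probe set rules, thresholds, controls and left-out arrays. Of these the 24 h PBS array as control, the limit of 3 times the array median, and numbers 1 to 3 with the block were chosen after seeing the data. Tables and figures were made with Python 3.11.15, pandas 2.3.3 and matplotlib 3.10.9.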

Additional observations from a re-analysis of the deposited data

Results flagged for a closer look

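Cep126, a centrosomal protein gene, was at -1.88 at 2 h and 1.08 at 6 h, Fzd10, a Wnt receptor gene, at 1.02 and -1.07, and Tacr3, a neurokinin receptor gene, at 1.19 and -1.33. These 3 genes were past 2-fold in opposite directions at the 2 times, with 1 array a group, and the difference between the times was not tested. The signals of Cep126 were 479 with PBS and 123 with the antibody at 2 h, and 152 and 332 at 6 h. At 24 h none of the 3 was called with or without the block.

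The Birc3 signal on the 24 h PBS array numbered 0 was 281.0, far below the 405, 415 and 431 of the other 3 PBS arrays for the spread of that group. Chance sets apart about 1 in 20 groups by this measure. Groups of further genes were searched in the same way and this was the only one set apart, so no conclusion is drawn from it. The early PBS arrays of Birc3, also numbered 0, had 293 and 280.4.

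Of the 10092 probe sets without a single gene name, 2634 passed the filter. At both times 5 of them were 2-fold higher with the antibody and 4 were 2-fold lower, and at 1.5-fold the counts were 18 and 10.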

How the results depend on the processing

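The main counts of 2-fold genes were 30 higher and 20 lower at 2 h, 60 and 21 at 6 h, and 6 and 1 at both times. Most of these genes are dim, and the counts followed the treatment of dim genes. In the same order they were 11, 8, 30, 9, 3 and 0 with a pseudocount of 50, and 6, 2, 15, 6, 2 and 0 with both arrays above their median. They were 3, 1, 10, 2, 2 and 0 with 1 array above 3 times its median at each time, and 553, 495, 680, 460, 85 and 61 with no filter. The 1.5-fold threshold gave 182, 117, 258, 135, 38 and 8. With the mean over all probe sets of a gene, 16 were higher at 2 h, 39 and 13 were higher and lower at 6 h, and 3 and 2 at both times. With the mean of the early PBS arrays as control, 13 were lower at 2 h, 33 higher at 6 h, and 18 and 2 at both times. With the 24 h PBS array numbered 0 as control, 39 were lower at 2 h, 36 and 32 were higher and lower at 6 h, and 22 and 7 at both times. Since the last 2 settings use 1 control for both times, their counts at both times are not independent. The cause was not tested.

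Scaling to equal medians or by quantiles moved none of 94 values of named genes beyond the spread between replicates at 24 h. That spread is from the fit without the block and so includes the differences between numbers. The medians of the 4 early arrays lay between 106.8 and 114, so equal medians could move these values only a little. Against the 24 h PBS array 32 of the 94 changed sign, 14 of them under 2-fold against PBS of the same time. The 18 past 2-fold were Dock2 (-0.22 at 6 h), Sema3f (-0.18 at 6 h), Gng4 (-0.31 and -0.17), Il17a (-0.074 at 2 h), Dscam (-0.64 and -0.55), Vax2 (-0.49 at 6 h), Rasd2 (-0.26 at 2 h), Actl7a (-0.35 at 6 h), Pask (0.88 and 0.98), Rtel1 (1.248 at 6 h), Tmem191c (-0.064 at 2 h), Notum (-0.14 at 2 h), Pigz (-0.21 at 2 h), Fank1 (-0.19 at 6 h) and Zfp1 (1.03 at 6 h). With the mean over probe sets Prr15 became -0.27 at 6 h.

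At 24 h, the 16 genes called higher and 0 lower became 319 and 277 with the replicate block, where 6 of the genes 1.5-fold higher at both early times and 1 of those 2-fold higher were called. With numbers 1 to 3 and the block the counts were 201, 111, 6 and 1, and both block fits kept all 16 calls. Equal medians gave 7 higher, no filter 8 and no variance trend 9, with 0 of the early genes called in each. In the fit without the block and without 1 of the 15 arrays, 6 to 27 genes were called higher. The most were called without the PBS array numbered 0, and 0 to 2 of the early genes were called. Nfkbie was called without that array or without the both-agonist array numbered 3, and Bcl3 and Junb without the former. The early values rest on 1 array each, so no alternative can supply their error.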

Other observations

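The lists not described above held no gene past 2-fold at either time. Cytokines and growth factors had a median of 0.08 at 2 h and 0.27 at 6 h over 10 genes, adhesion molecules 0.07 and 0.18 over 8, and ligands and receptors of the TNF superfamily -0.04 and 0.06 over 6. Complement and acute phase genes had -0.10 and 0.08 over 8, and SOCS and other cytokine feedback genes -0.02 and -0.06 over 7. Lcn2, an iron-binding acute phase gene, was at 0.18 and 0.13. Serpina3n, a protease inhibitor gene, was at -0.45 and -0.20.

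Among markers of other cells, the 14 endothelial markers that passed had medians of -0.06 and -0.04, and the 4 adventitial fibroblast markers -0.05 and 0.05. The 4 macrophage and monocyte markers had 0.02 (-0.01 with equal array medians) and 0.27, the 2 lymphocyte markers 0.05 and 0.50, and the 3 adipocyte markers -0.22 and -0.13. Ms4a1, a B cell gene, had 110 with PBS and 128 with the antibody at 2 h, and 63.9 and 120 at 6 h, so that the PBS array at 6 h was the low one. Fabp4, a fatty acid carrier of fat and endothelial cells, had 1083 and 929 at 2 h, and 848 and 702 at 6 h (-0.22 and -0.27).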
